A study of Mus musculus with 10 samples.

Results

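This account follows the genes of the WNT pathway while selected cells of the mouse testis were taken into culture. The testis is the source of spermatogonial stem cells, which sustain sperm production. The fresh cells also held transcripts of spermatids, spermatocytes and somatic cells, as given below. The members were chosen by gene name: all Wnt, Fzd, Dkk, Rspo and Sfrp genes with a number, together with Lrp5, Lrp6, Axin1, Axin2, Ctnnb1, Lef1, Tcf7, Tcf7l1, Tcf7l2, Porcn, Lgr4, Lgr5, Rnf43 and Znrf3. The rule found 55 of the 21969 genes in the expression matrix. Of these, 45 reached an FPKM of 1 or more in at least 2 libraries and were tested, beside 15671 genes in all. FPKM is the number of sequenced fragments scaled by transcript length and library size.

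The study measured poly(A) RNA by strand-specific RNA-seq in 10 libraries, 2 for each of 5 groups, and all cells came from DBA/2 mice. The week 0 group was cells of the adult testis, purified by magnetic sorting for CD9, a membrane protein of germ cells and other cells. The week 1, week 2 and week 3 groups were such cells after 1, 2 and 3 weeks in medium with FGF2 at 10 ng/ml, GDNF at 15 ng/ml and 1% fetal bovine serum. GS cells (germline stem cells, long-term cultures) formed the last group and were grown in the same medium. No transgene or mutation is named in the labels for any group. Feeder cells are not mentioned in the sources used here. The labels do not say whether the 2 libraries of a group were drawn from different animals or cultures, so p-values speak only of how far the libraries of a group spread, and that spread may be technical.

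WNT proteins are secreted ligands that need a lipid added by Porcn. They bind Frizzled receptors (Fzd) with the co-receptors Lrp5 and Lrp6, which stops a complex built on Axin from destroying β-catenin (Ctnnb1), and β-catenin then acts on genes with the DNA-binding factors Lef1, Tcf7, Tcf7l1 and Tcf7l2. SFRP and most DKK proteins hold the pathway back outside the cell, whereas R-spondins, through Lgr receptors, keep the ubiquitin ligases Rnf43 and Znrf3 from removing Frizzled. In the testis the pathway has been studied in the self-renewal of spermatogonia and in their exchange with somatic cells.

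Depth, read from the steps of the FPKM values, was 10.34 to 21.06 M reads per library. Markers of several testis cell types differed between the groups. The summed FPKM of 7 spermatid markers was 23167 and 24902 at week 0, 171 and 159 after 1 week, and between 6.43 and 10.5 in the 6 later libraries. The 12 fibroblast and matrix markers summed to 679 and 823 at week 0, to 7523 and 7477 after 1 week, and to between 379 and 832 later. The 10 Sertoli cell markers summed to 537 and 535 at week 0, 283 and 279.8 after 1 week and 17.0 to 26.5 later, and the 6 Leydig cell markers to 1753 and 1511, then 74.6 and 81.3, then 2.87 to 9.85. The 14 markers of undifferentiated spermatogonia, the labelled cell type, summed to 95.4 and 98.0 at week 0, 375 and 392 after 1 week, and 631 to 797 later. The 7 spermatocyte markers summed to 4845 and 4506, then 133 and 106, then 109 to 221. The 6 smooth muscle and myoid markers summed to 751 and 908, then 1168 and 1121, then 25.1 to 86.3. The 4 markers of differentiating spermatogonia summed to 101 to 116 in the first 4 libraries and 234 to 355 later. Over the 10 libraries the 6 macrophage markers summed to 27.4 to 128 and the 6 endothelial markers to 4.64 to 33.3, lowest in GS cells and after 3 weeks, respectively. No marker was listed at 0 in all libraries. In such bulk samples, fewer cells of a type and less RNA per cell cannot be told apart.

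From week 0 to week 1, 37 of the 45 tested members passed the test (limma, Benjamini-Hochberg adjusted p under 0.05 over all genes tested), 26 higher and 11 lower. Over all tested genes 80.3% passed, 36.3% higher and 44.0% lower, so the share of members called was near the background. The median log2 fold change was 0.52 over the members and -0.14 over all genes. These member values include 8 genes that passed the filter through 1 group only. The filter fixed their direction in this step: 5 passed through week 1 and had to rise, and 3 passed through week 0 and had to fall. When the libraries were given a common distribution (quantile normalization) the median of all genes was 0.38 and the members split into 32 higher and 7 lower. From week 1 to week 2, 32 members passed, 10 higher and 22 lower, where 55.6% of all genes passed, 28.2% higher and 27.4% lower. The member median was -0.39 and the median of all genes 0.03. In this step 13 members were higher and 18 lower after quantile normalization. The 5 members that passed the filter through week 1 only had to fall here. From week 2 to week 3, 12 members passed (5 higher, 7 lower) against 21.3% of all genes, and from week 3 to GS cells 12 passed (7 higher, 5 lower) against 22.5%. The last of these counts was 7 without week 3 replicate 1 and 6 without week 3 replicate 2. GS cells differed from week 0 in 36 members, 20 higher and 16 lower, against 80.6% of all genes (34.7% higher, 45.9% lower). This split was 31 higher and 4 lower after quantile normalization, and 23 and 10 after scaling each library to a common FPKM sum. As deposited, the 3 members that passed the filter through week 0 only had to be lower in GS cells.

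The levels themselves show when each member was highest. In 19 of the 45 tested members both week 1 libraries lay above the other 8, a pattern found in 17.1% of all tested genes. Without the genes that passed the filter through 1 group only, it was 14 of 37 members and 17.7% of 13801 genes. The 19 were the ligands Wnt2, Wnt4, Wnt5a, Wnt9a, Wnt10a, Wnt10b and Wnt11, the receptors Fzd1, Fzd5, Fzd7 and Fzd8, the inhibitors Dkk2, Dkk3, Sfrp1, Sfrp2 and Sfrp4, and Rspo3, Lgr4 and Ctnnb1. The 12 fibroblast and matrix markers were also highest after 1 week, all 12 rising from week 0 and all 12 falling to week 2. Of the 6 smooth muscle and myoid markers 2 rose and 3 fell to week 1, and 5 fell to week 2, while their sum was highest in the week 1 libraries. The part of either list in these week 1 levels was not tested. In 9 members (Wnt2b, Wnt3a, Wnt5b, Wnt6, Wnt7a, Fzd9, Porcn, Rnf43 and Lef1) both week 0 libraries were the highest, a pattern of 38.2% of all genes. In 7 members (Wnt3, Wnt7b, Fzd2, Fzd6, Rspo2, Znrf3 and Tcf7) both GS libraries were the highest, a pattern of 6.71% of all genes. The libraries of week 2 were the highest for Fzd10 alone among the members (3.93% of all genes), and those of week 3 for Rspo4 alone (9.17%). Of the tested members, 8 passed the filter through 1 group only (Fzd9, Wnt3a and Wnt7a at week 0, and Fzd8, Rspo3, Wnt4, Wnt10a and Wnt10b after 1 week) and so had to differ. Without such genes the week 0 pattern held in 6 of 37 members and 32.0% of genes, and the GS pattern in 7 of 37 and 7.42%.

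**Figure D1:**
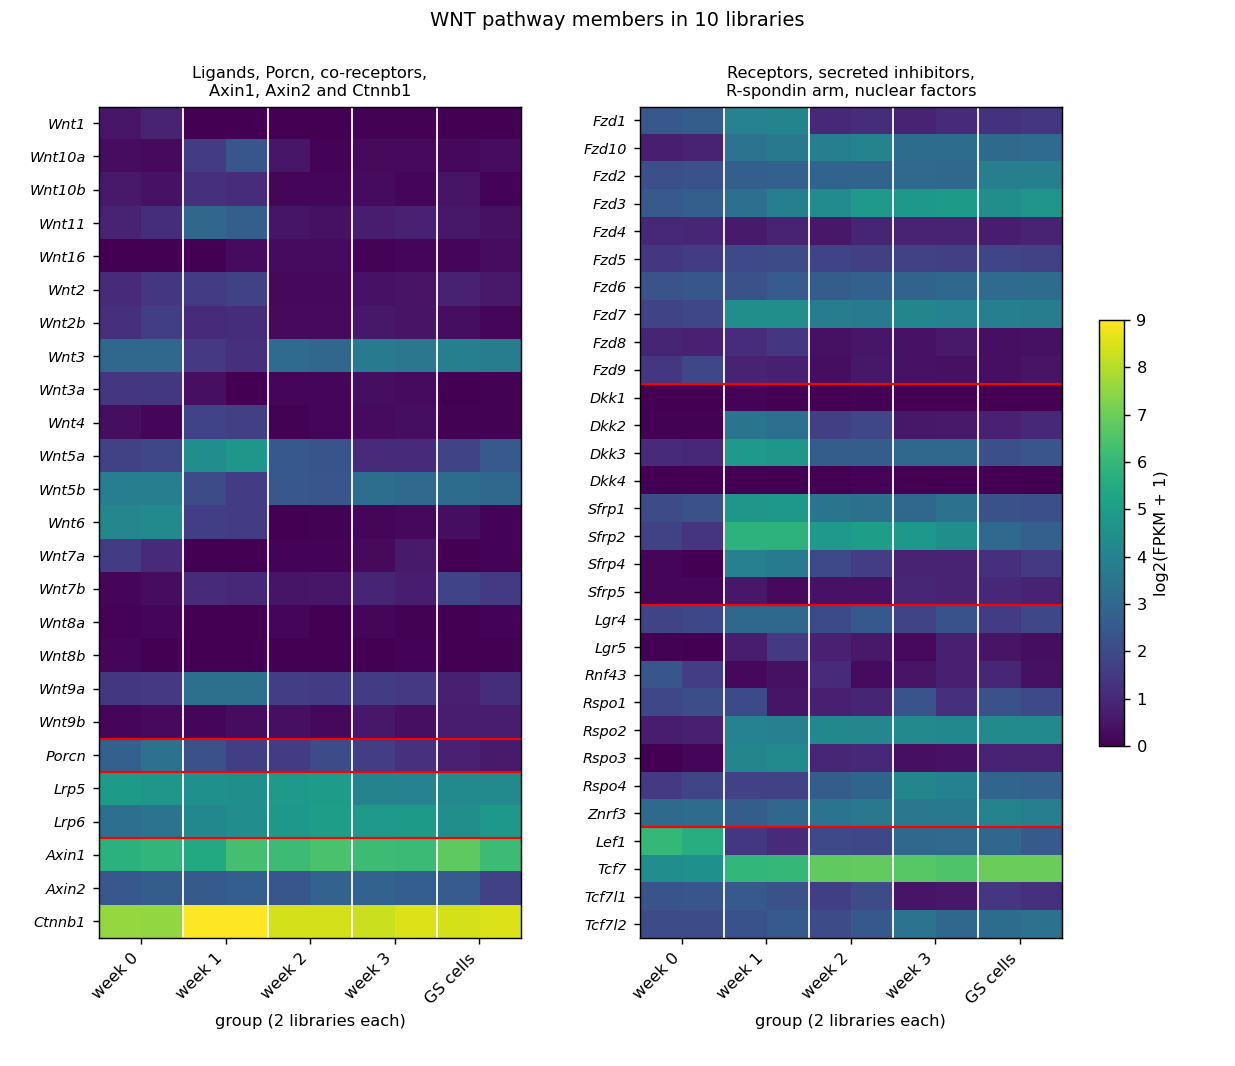
Colour gives log2(FPKM + 1) of all 55 members (rows, by role) in the 10 libraries (columns, 2 per group). The 5 tested secreted inhibitors and Rspo3 are brightest in the week 1 columns, Lef1 and Wnt6 in the week 0 columns, and Tcf7 and Rspo2 stay bright from week 1 on.

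Promoter sequences are shown for 4 members with large changes, chosen after their values were seen: Wnt6, which was highest at week 0, and Wnt11, Dkk2 and Sfrp2, which were highest after 1 week. Wnt11 has another start in the table, with the window chr7:98838595-98838844 (+), which holds neither motif searched here and is not printed. Each printed window is the 250 bases before the annotated start, from the RefSeq promoter table of GRCm38.p6, 5′ to 3′ on the gene's strand, and none overlaps an annotated exon. Capitals mark matches on either strand to CTTTGAT, a motif that TCF and LEF proteins bind, and to the TATA box sequence TATAAA. The 4 windows are chr1:74771642-74771891 (+) for Wnt6, chr7:98834862-98835111 (+) for Wnt11, chr3:132085042-132085291 (+) for Dkk2 and chr3:83766071-83766320 (+) for Sfrp2.
Wnt6: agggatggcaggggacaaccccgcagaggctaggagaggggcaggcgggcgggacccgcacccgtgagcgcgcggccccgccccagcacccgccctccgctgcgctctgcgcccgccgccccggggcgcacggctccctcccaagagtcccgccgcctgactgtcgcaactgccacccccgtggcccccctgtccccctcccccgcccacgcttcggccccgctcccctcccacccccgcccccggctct
Wnt11: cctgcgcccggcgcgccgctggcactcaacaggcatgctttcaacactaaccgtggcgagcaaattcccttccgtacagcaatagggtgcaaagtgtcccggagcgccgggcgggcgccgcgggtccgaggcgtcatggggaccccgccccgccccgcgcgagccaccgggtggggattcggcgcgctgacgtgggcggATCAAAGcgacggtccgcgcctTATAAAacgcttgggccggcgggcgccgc
Dkk2: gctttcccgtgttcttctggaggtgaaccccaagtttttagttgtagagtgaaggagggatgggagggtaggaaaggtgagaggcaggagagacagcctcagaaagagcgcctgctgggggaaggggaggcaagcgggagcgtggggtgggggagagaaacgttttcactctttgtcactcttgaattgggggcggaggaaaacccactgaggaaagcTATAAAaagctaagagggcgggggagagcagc
Sfrp2: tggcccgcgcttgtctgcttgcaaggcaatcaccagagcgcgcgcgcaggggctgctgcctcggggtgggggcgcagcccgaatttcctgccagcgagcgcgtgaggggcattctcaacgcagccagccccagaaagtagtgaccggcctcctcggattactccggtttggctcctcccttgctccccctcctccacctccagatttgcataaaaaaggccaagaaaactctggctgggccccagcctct

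The Wnt6 window had a GC content of 79.6% and 28 CpG dinucleotides, the Wnt11 window 70.8% and 37, the Sfrp2 window 63.6% and 16, and the Dkk2 window 55.6% and 7. The medians over the table's 32841 promoters were 52.4% and 6 CpG. In the printed Wnt11 window the TCF/LEF match stood on the opposite strand 51 bases before the start, written there as ATCAAAG, and TATAAA 29 bases before it. TATAAA stood 32 bases before the start of Dkk2. The table held 45 promoters of 35 members. CTTTGAT or CTTTGAA, searched on both strands, was found in those of Dkk1, Wnt5b and Wnt11 and in 7.48% of all promoters. TATAAA on either strand was found in those of 8 members (Ctnnb1, Dkk1, Dkk2, Fzd1, Lef1, Tcf7, Tcf7l2 and Wnt11) and in 12.4% of all promoters. These are matches of letters and were not linked to binding by any data here.

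The make-up of the ligand transcripts changed in the first week. Their summed FPKM was 50.6 and 54.0 at week 0 and 53.5 and 59.0 after 1 week, then 21.6 and 18.8 after 2 weeks, 28.1 and 25.4 after 3 weeks, and 30.9 and 30.3 in GS cells. Wnt6 made up 34.2% of the ligand FPKM at week 0, Wnt5b 25.7% and Wnt3 13.8%. At week 1 Wnt5a made up 40.8%, Wnt9a 15.9% and Wnt11 11.3%. At week 3 Wnt3 had 43.2% and Wnt5b 29.7%, and in GS cells Wnt3 had 43.6% and Wnt5b 25.1%. Of the 14 tested ligands, 8 rose and 5 fell from week 0 to week 1, and 2 rose and 10 fell from week 1 to week 2. Over all genes 36.3% rose and 44.0% fell in the former step, and 28.2% rose and 27.4% fell in the latter. Among the ligands, Wnt3a and Wnt7a had passed the filter through week 0 only, and Wnt4, Wnt10a and Wnt10b through week 1 only. The filter therefore fixed the direction of their changes into or out of that week.

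**Figure D2:**
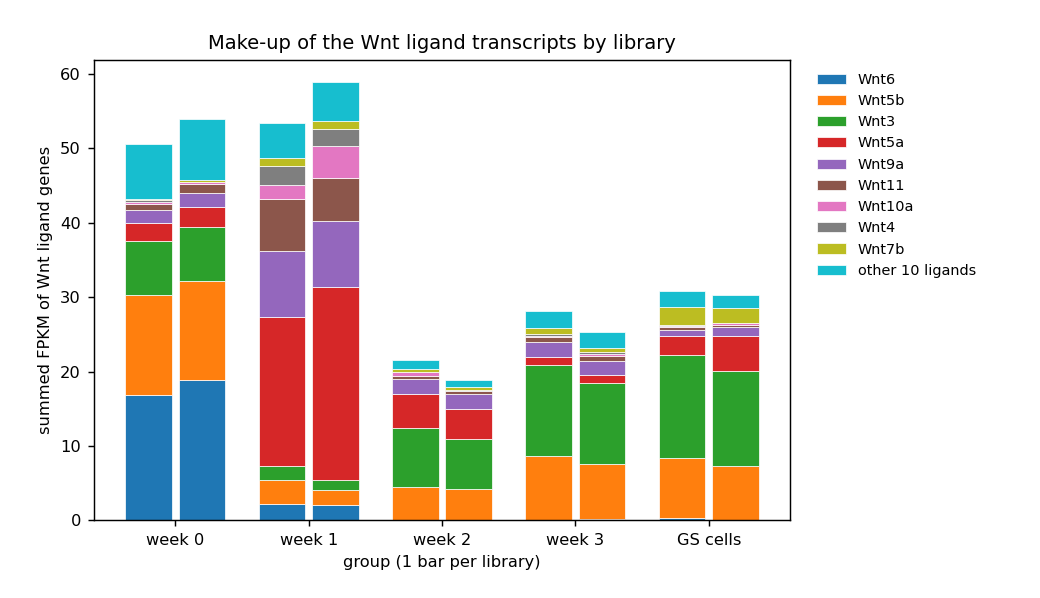
Each bar is 1 library, its height the summed FPKM of the Wnt ligand genes and its colours the genes. Wnt6 and Wnt5b fill most of the week 0 bars, Wnt5a is the largest block after 1 week, and Wnt3 and Wnt5b are the largest blocks after 3 weeks and in GS cells.

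Wnt6, a ligand best known from epithelia, stood at 16.9 and 18.9 FPKM at week 0, 2.18 and 2.01 after 1 week, 0 and 0.0398 after 2 weeks, 0.0957 and 0.147 after 3 weeks, and 0.264 and 0.0568 in GS cells. Every cultured library was below both week 0 libraries. It fell by 2.61 on the log2 scale to week 1 (SE 0.12, adjusted p = 1.66e-07) and by 1.60 more to week 2 (SE 0.12, adjusted p = 1.92e-05). Wnt3a, the classic activator of β-catenin signalling, was at 1.66 and 1.73 FPKM at week 0 and between 0 and 0.281 in the 8 other libraries. Its log2 change to week 1 was -1.25 (SE 0.12, adjusted p = 1.52e-05). Wnt7a was at 2.03 and 1.14 FPKM at week 0 and at 0 in the pair of week 1 libraries (adjusted p = 0.000141 by limma). Wnt3a and Wnt7a had passed the filter through week 0 only, so the filter fixed the direction of their falls and these p-values add no support. Wnt2b, at 1.39 and 2.21 FPKM at week 0, fell between week 1 (1.13 and 1.25) and week 2 (0.166 and 0.167). The Sertoli, Leydig, spermatocyte and spermatid marker sums given above also fell in the first week, and their part in the loss of these ligands was not tested.

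Wnt3 and Wnt5b dipped after 1 week and came back. Wnt3, another activator of β-catenin signalling, was at 7.26 and 7.18 FPKM at week 0, 1.83 and 1.40 after 1 week, 7.92 and 6.75 after 2 weeks, 12.2 and 10.9 after 3 weeks, and 13.9 and 12.7 in GS cells. The fall to week 1 was -1.66 on the log2 scale (SE 0.14, adjusted p = 6.52e-06) and the rise to week 2 was 1.67 (SE 0.14, adjusted p = 2.96e-05). The GS libraries were above the week 0 libraries, with a log2 difference of 0.80 (SE 0.14, adjusted p = 0.000657). Wnt5b, which acts mostly outside the β-catenin route, was at 13.5 and 13.3 FPKM at week 0, 3.22 and 2.00 after 1 week, 4.48 and 4.12 after 2 weeks, 8.54 and 7.36 after 3 weeks and 8.06 and 7.30 in GS cells. It fell by 2.02 to week 1 (SE 0.17, adjusted p = 8.11e-06). The later rises were less firm. That of Wnt3 from week 2 to week 3 (0.59, adjusted p = 0.0192) was lost without week 2 replicate 2 (adjusted p = 0.119) or week 3 replicate 1 (0.099). The Wnt5b rise from week 1 to week 2 (0.57) was lost without week 1 replicate 2 (0.33, adjusted p = 0.0999), week 2 replicate 1 (0.0991) or week 2 replicate 2 (0.0581), and its rise to week 3 (0.75) without week 2 replicate 1 (0.0672), week 2 replicate 2 (0.0964) or week 3 replicate 1 (0.0968).

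A group of ligands had a peak after 1 week. Wnt5a, the best known ligand of the β-catenin-independent branch, was at 2.39 and 2.73 FPKM at week 0, 20.1 and 26.0 after 1 week, 4.51 and 4.06 after 2 weeks, 1.14 and 1.15 after 3 weeks, and 2.58 and 4.65 in GS cells. It rose by 2.75 on the log2 scale to week 1 (SE 0.22, adjusted p = 5.31e-06), and changed by -2.18 to week 2 (adjusted p = 8.74e-05) and by -1.30 to week 3 (adjusted p = 0.00556). Its difference between GS cells and week 3 (1.07, adjusted p = 0.012) was lost without either week 3 library (0.0555 without replicate 1 and 0.0511 without replicate 2). Wnt9a was at 1.77 and 1.83 FPKM at week 0, 8.90 and 8.88 after 1 week, 2.11 and 2.05 after 2 weeks, 2.01 and 1.78 after 3 weeks, and 0.730 and 1.24 in GS cells. Its rise to week 1 was 1.82 (SE 0.14, adjusted p = 4.1e-06). Its difference from week 3 to GS cells (-0.55, adjusted p = 0.026) was lost without week 3 replicate 1 (0.118), week 3 replicate 2 (0.067) or GS cells replicate 1 (0.136).

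Wnt11, a ligand of cell movement and polarity, was at 0.797 and 1.27 FPKM at week 0, 6.93 and 5.69 after 1 week, and 0.311 to 0.776 in the 6 later libraries. It rose by 1.85 (SE 0.15, adjusted p = 5.09e-06) and then changed by -2.41 (SE 0.15, adjusted p = 6.71e-06). Wnt4, a regulator of gonad development, was at 0.266 and 0.119 FPKM at week 0, 2.49 and 2.30 after 1 week, and at most 0.265 later. The 2 week 1 libraries of Wnt10a differed, at 1.96 and 4.27 FPKM, but both lay above the other 8, which ranged from 0.0656 to 0.445. Wnt10b, its close relative, was at 1.33 and 1.19 FPKM after 1 week and 0.0530 to 0.537 elsewhere. Wnt2 was at 1.08 and 1.66 FPKM at week 0, 1.98 and 2.45 after 1 week and 0.145 to 0.762 later. The Wnt2 rise to week 1 (0.45, adjusted p = 0.0165) was lost without week 0 replicate 1 (0.0763) or week 1 replicate 2 (0.0892).

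Wnt7b had the largest rise of the tested ligands between week 0 and GS cells (log2 difference 1.45, SE 0.13, adjusted p = 1.09e-05). It was at 0.0990 and 0.239 FPKM at week 0, 1.09 and 1.07 after 1 week, 0.419 and 0.447 after 2 weeks, 0.891 and 0.596 after 3 weeks, and 2.50 and 1.90 in GS cells. The log2 difference between GS cells and week 3 was 0.87 (SE 0.13, adjusted p = 0.00319), and it missed the threshold when these groups were fitted alone (adjusted p = 0.0656). Between GS cells and week 0, Wnt3 and Wnt7b were higher and 8 of the 14 tested ligands were lower. Over all genes 34.7% were higher and 45.9% lower. Wnt3a and Wnt7a had passed the filter through week 0 only, so the filter fixed their direction here. Wnt6 and Wnt3a stayed past the test as lower after quantile normalization, which turned the sign of Wnt2, Wnt9a and Wnt11 and ended the calls of Wnt2b, Wnt5b and Wnt7a.

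Several ligand genes lie next to each other in the genome, and 2 tested pairs of neighbours changed in opposite directions in the first week. In each pair 1 member, Wnt10a or Wnt3a, had passed the filter through its high group only, so the direction of that member was fixed by the filter. On chromosome 1 of GRCm38, Wnt6 (74771892 to 74785322, plus strand) ends 6193 bases before Wnt10a (74791516 to 74804179, plus strand). Wnt6 fell while Wnt10a rose by 1.71 (SE 0.25, adjusted p = 0.000251). On chromosome 11, Wnt3a (59248033 to 59290752, minus strand) and Wnt9a (59306928 to 59333552, plus strand) are 16175 bases apart, and Wnt3a fell while Wnt9a rose. On chromosome 15, Wnt10b (98770712 to 98778150, minus strand) lies 11706 bases from Wnt1 (98789857 to 98793837, plus strand). Wnt10b rose by 0.65 (adjusted p = 0.00227 by limma), but it too had passed the filter through week 1 only, which fixed its direction. Wnt1 had 0.444 and 0.872 FPKM at week 0, was at 0 in the pair of week 1 libraries and was too low to test. Wnt9b, 24328 bases from Wnt3 on chromosome 11, stayed between 0.0833 and 0.664 FPKM in all 10 libraries.

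Porcn, the enzyme that adds the lipid to WNT ligands, was at 5.71 and 9.24 FPKM at week 0, 3.68 and 2.16 after 1 week, 2.06 and 3.18 after 2 weeks, 2.13 and 1.44 after 3 weeks, and 0.780 and 0.567 in GS cells. All cultured libraries were below both week 0 libraries, and the GS libraries were the lowest. The log2 difference between GS cells and week 0 was -2.31 (SE 0.28, adjusted p = 6.86e-05). The fall to week 1 (-1.11, adjusted p = 0.00564) missed the threshold without week 0 replicate 2 (-0.80, adjusted p = 0.0629) and after quantile normalization (-0.53, adjusted p = 0.121). Wls, which carries finished ligands to the cell surface, went the other way after 1 week, from a mean of 5.50 ± 0.46 to 97.1 ± 2.5 FPKM (SD, n = 2; log2 change 3.92, adjusted p = 1.24e-06 by limma), and back to 6.90 ± 0.84 after 2 weeks.

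The Frizzled receptors gained in culture. Their summed FPKM was 25.2 and 29.0 at week 0, and 62.3 to 78.5 in the 8 cultured libraries. Of the 9 tested receptors 7 rose and 1 fell after 1 week, and in GS cells 6 were higher and 3 (Fzd1, Fzd8 and Fzd9) lower than at week 0. Among all genes 80.3% passed in the former comparison, 36.3% higher and 44.0% lower. In the latter 80.6% passed, 34.7% higher and 45.9% lower. Fzd8 had passed the filter through week 1 only and Fzd9 through week 0 only. The filter therefore fixed the direction of the Fzd8 rise to week 1 and of both Fzd9 differences from week 0. Quantile normalization ended the calls of Fzd1 and Fzd9 in the last comparison and turned Fzd8 from -0.47 to 0.40. Fzd7 was at 2.56 and 2.74 FPKM at week 0, 20.8 and 20.8 after 1 week, 12.7 and 12.4 after 2 weeks, 16.5 and 14.8 after 3 weeks, and 13.6 and 12.9 in GS cells. Its rise was 2.58 on the log2 scale (SE 0.10, adjusted p = 6.76e-08). Fzd10 was at 0.697 and 0.804 FPKM at week 0, 9.69 and 11.3 after 1 week, 13.9 and 15.2 after 2 weeks, 7.98 and 8.08 after 3 weeks, and 7.58 and 7.89 in GS cells. It rose by 2.71 to week 1 (SE 0.12, adjusted p = 1.34e-07) and changed by -0.79 from week 2 to week 3 (adjusted p = 0.00379). Its further rise from week 1 to week 2 (0.44, adjusted p = 0.0154) was lost without week 1 replicate 1 (0.072) or week 2 replicate 2 (0.0921).

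Fzd3, a receptor known from planar cell polarity and axon growth, was at 4.70 and 5.57 FPKM at week 0, 8.75 and 13.7 after 1 week, 19.3 and 27.5 after 2 weeks, 27.0 and 28.6 after 3 weeks, and 20.9 and 24.7 in GS cells. It rose by 0.97 to week 1 (adjusted p = 0.00384) and by 1.01 to week 2 (adjusted p = 0.00557), and held 39.5% of the receptor FPKM after 3 weeks. Fzd2 was at 3.63 and 3.86 FPKM at week 0, 5.64 to 7.43 from week 1 to week 3, and 13.4 and 13.9 in GS cells, above all other libraries. The step from week 3 to GS cells was 0.83 (SE 0.11, adjusted p = 0.00174). Fzd6, a polarity receptor, reached 7.79 and 8.07 FPKM in GS cells against 3.94 and 4.25 at week 0 (log2 difference 0.81, adjusted p = 0.000832).

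Fzd1 had a sharp peak. It was at 4.47 and 5.27 FPKM at week 0, 15.0 and 15.5 after 1 week, and 0.843 to 1.66 in the 6 later libraries, all below week 0. It rose by 1.47 (SE 0.14, adjusted p = 1.31e-05) and then changed by -2.91 to week 2 (SE 0.14, adjusted p = 2.03e-06). Fzd9 fell from 1.66 and 2.76 FPKM at week 0 to 0.830 and 0.720 after 1 week (-0.83, adjusted p = 0.00164 by limma). The filter fixed the direction of this fall, so its p-value adds no support. After quantile normalization the change was -0.068 (adjusted p = 0.711 by limma). Later Fzd9 lay between 0.247 and 0.498. Fzd5 stayed between 1.68 and 3.19 FPKM in all libraries, and Fzd8 between 0.302 and 1.66. A transcript on the opposite strand overlaps 17.8% of the Fzd5 exon bases, and 11 of the members have some such overlap. The filter fixed the direction of the Fzd8 rise to week 1, so the p-value of that rise adds no support. The Fzd8 rise to week 1 (0.41, adjusted p = 0.0132) was lost without week 0 replicate 2 (0.0596) or week 1 replicate 2 (0.0767). The higher Fzd5 level in GS cells than at week 0 (0.32, adjusted p = 0.0332) was lost without week 0 replicate 1 (0.0942), GS cells replicate 1 (0.125) or GS cells replicate 2 (0.0657).

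The co-receptors traded places. Lrp5 was at 29.0 and 25.9 FPKM at week 0, 21.9 and 21.5 after 1 week, 28.5 and 30.0 after 2 weeks, 15.2 and 14.8 after 3 weeks, and 18.9 and 18.8 in GS cells. Lrp6 was at 8.80 and 9.83 FPKM at week 0, 17.5 and 20.1 after 1 week, 26.7 and 31.7 after 2 weeks, 28.5 and 29.0 after 3 weeks, and 20.6 and 26.6 in GS cells. The ratio of Lrp6 to Lrp5 was 0.304 and 0.380 at week 0, 0.799 and 0.935 after 1 week, 1.88 and 1.95 after 3 weeks, and 1.09 and 1.41 in GS cells. Lrp6 rose by 0.94 to week 1 (SE 0.15, adjusted p = 0.000374). Lrp5 changed by -0.92 from week 2 to week 3 (SE 0.09, adjusted p = 0.000471). The small Lrp5 change to week 1, -0.32, became 0.088 after quantile normalization, and the call on its rise from week 3 to GS cells (0.31, adjusted p = 0.0379) was lost without either library of week 2 (0.0652 and 0.0655), of week 3 (0.104 and 0.129) or of GS cells (0.131 and 0.118). The Lrp6 rise to week 2 (0.61, adjusted p = 0.00801) was lost without week 2 replicate 2 (0.0607).

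All 5 tested secreted inhibitors rose after 1 week and all 5 fell after 2 weeks, where 36.3% of all genes rose and 27.4% fell in the same steps. The 4 SFRP genes, Sfrp5 included, summed to 5.86 and 5.48 FPKM at week 0, 95.6 and 93.7 after 1 week, 41.7 and 42.4 after 2 weeks, 36.0 and 32.4 after 3 weeks, and 13.7 and 12.0 in GS cells. The 4 DKK genes summed to 1.16 and 1.12 at week 0, 38.3 and 35.2 after 1 week, 7.52 and 8.27 after 2 weeks, 7.74 and 7.71 after 3 weeks, and 4.35 and 5.25 in GS cells. The fibroblast and matrix marker sum rose and fell over the same steps (679 and 823, then 7523 and 7477, then 797 and 832), and its part in these changes was not tested.

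Sfrp2, a decoy that binds WNT ligands, was at 2.35 and 1.61 FPKM at week 0, 54.9 and 55.0 after 1 week, 28.3 and 31.0 after 2 weeks, 27.0 and 21.4 after 3 weeks, and 7.53 and 5.69 in GS cells. The GS libraries stayed above week 0 but below all other cultured libraries. It rose by 4.24 to week 1 (SE 0.18, adjusted p = 8.16e-08), changed by -0.87 to week 2 (adjusted p = 0.00341) and by -1.73 from week 3 to GS cells (SE 0.18, adjusted p = 0.000662). A transcript on the opposite strand overlaps 16.1% of the Sfrp2 exon bases, and the sources used here do not give whether the counting used strand. Sfrp1 was at 3.27 and 3.75 FPKM at week 0, 26.1 and 26.9 after 1 week, 9.99 and 8.93 after 2 weeks, 7.16 and 9.27 after 3 weeks, and 3.75 and 3.55 in GS cells. It rose by 2.61 (SE 0.14, adjusted p = 4.43e-07), and its log2 difference between GS cells and week 0 was 0.05 (SE 0.14, adjusted p = 0.771). Sfrp4 was at 0.124 and 0.0206 FPKM at week 0, 14.1 and 11.7 after 1 week, 3.00 and 2.07 after 2 weeks, 0.808 and 0.864 after 3 weeks, and 1.38 and 1.85 in GS cells.

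Dkk3, a divergent member of its family, was at 1.13 and 1.08 FPKM at week 0, 27.9 and 26.4 after 1 week, 5.23 and 5.37 after 2 weeks, 7.23 and 7.20 after 3 weeks, and 3.56 and 4.20 in GS cells. It rose by 3.74 (SE 0.12, adjusted p = 1.56e-08) and fell by 2.16 (SE 0.12, adjusted p = 3.96e-06). Dkk2, which binds Lrp5 and Lrp6, was at 0.0276 and 0.0451 FPKM at week 0, a level of 1 and 2 reads, and at 10.4 and 8.80 after 1 week. It then stood at 2.28 and 2.80 FPKM after 2 weeks, 0.510 and 0.514 after 3 weeks, and 0.785 and 1.05 in GS cells. Its rise to week 1 was 3.35 on the log2(FPKM + 1) scale and 6.15 with a pseudocount of 0.1, since the scale compresses changes of low genes. The best known DKK inhibitor, Dkk1, and also Dkk4 were at most 0.0668 FPKM in every library.

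**Figure D3:**
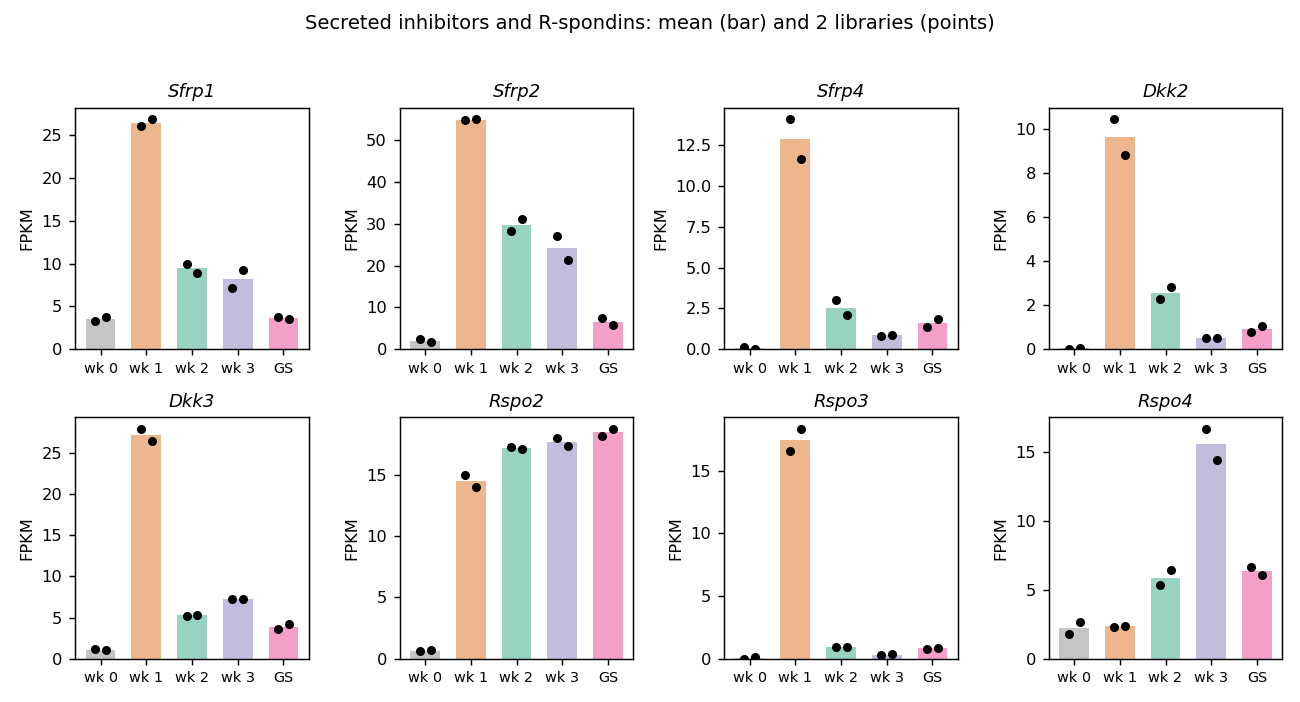
Bars are group means and points the 2 libraries, in FPKM on axes that start at 0, for 5 secreted inhibitors and 3 R-spondins over weeks 0 to 3 and GS cells (GS). The 5 inhibitors and Rspo3 peak after 1 week, Rspo2 stays near its week 1 level to GS cells, and Rspo4 peaks after 3 weeks.

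The R-spondins followed separate courses. Rspo2 was at 0.602 and 0.741 FPKM at week 0, 15.0 and 14.0 after 1 week, 17.3 and 17.1 after 2 weeks, 18.0 and 17.3 after 3 weeks, and 18.2 and 18.7 in GS cells. It rose by 3.21 to week 1 (SE 0.10, adjusted p = 1.81e-08), and no later step passed the test. Rspo3 was listed at 0 and at 0.117 FPKM at week 0, 16.5 and 18.3 after 1 week, 0.962 and 0.980 after 2 weeks, 0.286 and 0.349 after 3 weeks, and 0.806 and 0.847 in GS cells. It rose by 4.12 (SE 0.11, adjusted p = 5.41e-09) and changed by -3.22 to week 2 (SE 0.11, adjusted p = 8.99e-07). Rspo3 had passed the filter through week 1 only, so the filter fixed the direction of both changes and these p-values add no support. A transcript on the opposite strand overlaps 13.1% of the Rspo3 exon bases. Rspo4 was at 1.83 and 2.70 FPKM at week 0, 2.32 and 2.37 after 1 week, 5.35 and 6.41 after 2 weeks, 16.7 and 14.4 after 3 weeks, and 6.62 and 6.07 in GS cells. It rose by 1.04 to week 2 (SE 0.16, adjusted p = 0.000942) and by 1.27 to week 3 (adjusted p = 0.00174), and changed by -1.17 from week 3 to GS cells (adjusted p = 0.00249). Rspo1 ranged from 0.423 to 3.92 FPKM, with no step past the test. Its week 1 libraries were far apart, at 3.05 and 0.423. The week 2 libraries, at 0.751 and 0.910, lay between them and below all libraries of week 0, week 3 and GS cells. The small later changes of Rspo3 were fragile. Its fall to week 3 (-0.58, adjusted p = 0.00778) was lost without week 2 replicate 2 (0.0508) or week 3 replicate 1 (0.0518), and its rise to GS cells (0.47, adjusted p = 0.0175) without either library of week 3 (0.0902 and 0.0582) or of GS cells (0.0738 and 0.081).

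Downstream of the R-spondins, Znrf3, a ligase that removes Frizzled, was at 7.70 and 8.16 FPKM at week 0, 5.28 and 6.82 after 1 week, 9.79 and 11.2 after 2 weeks, 11.3 and 11.5 after 3 weeks, and 15.4 and 13.5 in GS cells. It rose by 0.71 from week 1 to week 2 (SE 0.14, adjusted p = 0.00307), and the difference between GS cells and week 0 was 0.79 (SE 0.14, adjusted p = 0.00086). The lower Znrf3 level after 1 week than at week 0 (-0.35, adjusted p = 0.0473) lost its call without any 1 of the libraries except week 1 replicate 2 (adjusted p 0.0545 to 0.249). Quantile normalization turned it to 0.20. Rnf43, its relative, was at 4.25 and 2.09 FPKM at week 0 and 0.131 to 1.09 in the cultured libraries. It fell by 1.71 to week 1 (SE 0.34, adjusted p = 0.00154), and the call between GS cells and week 0 (-1.32) was lost without week 0 replicate 1 (-0.94, adjusted p = 0.0765) and after quantile normalization (-0.26, adjusted p = 0.501). The receptor Lgr4 was at 2.58 and 2.83 FPKM at week 0, 7.08 and 6.99 after 1 week, and 1.98 to 4.61 later. It rose by 1.12 to week 1 (SE 0.21, adjusted p = 0.00124). Its fall to week 2 (-0.75, adjusted p = 0.0168) was lost without week 1 replicate 1 (0.059), week 1 replicate 2 (0.054) or week 2 replicate 1 (0.113), and after quantile normalization (0.0999) or a common FPKM sum (0.0838). Lgr5, a stem cell marker of the gut, was at most 0.790 FPKM outside week 1 and at 0.623 and 1.84 there.

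Inside the cell, Ctnnb1 (β-catenin, also a partner of cadherins at cell contacts) was the most abundant member. It was at 188 and 185 FPKM at week 0, 551 and 519 after 1 week, 345 and 346 after 2 weeks, 306 and 369.8 after 3 weeks, and 343 and 369 in GS cells. It rose by 1.52 to week 1 (SE 0.09, adjusted p = 1e-06) and changed by -0.63 to week 2 (SE 0.09, adjusted p = 0.000696), a fall that quantile normalization reduced to -0.10 (adjusted p = 0.407). Transcripts on the opposite strand overlap 14.6% of its exon bases. Axin1, the scaffold of the destruction complex, ranged from 43.4 to 108 FPKM and did not pass the test in any comparison. Neither did Axin2, a feedback gene that β-catenin switches on in many tissues. Axin2 was at 4.39 and 5.27 FPKM at week 0, 4.79 and 5.43 after 1 week, 4.29 and 6.12 after 2 weeks, 6.06 and 5.49 after 3 weeks, and 5.13 and 2.46 in GS cells, so the groups overlapped. Its log2 change from week 0 to week 1 was 0.07 (SE 0.27, adjusted p = 0.817 by limma).

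Among the nuclear factors, Lef1 was the most abundant at week 0 and Tcf7 in every cultured group. Lef1, an activating partner of β-catenin, was at 63.3 and 47.6 FPKM at week 0, 1.76 and 1.14 after 1 week, 2.97 and 2.91 after 2 weeks, 7.11 and 7.49 after 3 weeks, and 6.85 and 4.82 in GS cells. Every cultured library was far below both week 0 libraries. The change to week 1 was -4.52 on the log2 scale (SE 0.20, adjusted p = 1.33e-07). A transcript on the opposite strand overlaps 13.7% of the Lef1 exon bases. Tcf7, a relative known from T cells, was at 20.1 and 22.1 FPKM at week 0, 61.9 and 63.0 after 1 week, 109.7 and 113 after 2 weeks, 100.5 and 90.4 after 3 weeks, and 126 and 124 in GS cells. It rose by 1.52 to week 1 (SE 0.08, adjusted p = 3.33e-07) and by 0.82 to week 2 (SE 0.08, adjusted p = 6.69e-05). The ratio of Tcf7 to Lef1 FPKM was 0.317 and 0.464 at week 0, 35.2 and 55.3 after 1 week, 36.9 and 38.7 after 2 weeks, 14.1 and 12.1 after 3 weeks, and 18.5 and 25.7 in GS cells.

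**Figure D4:**
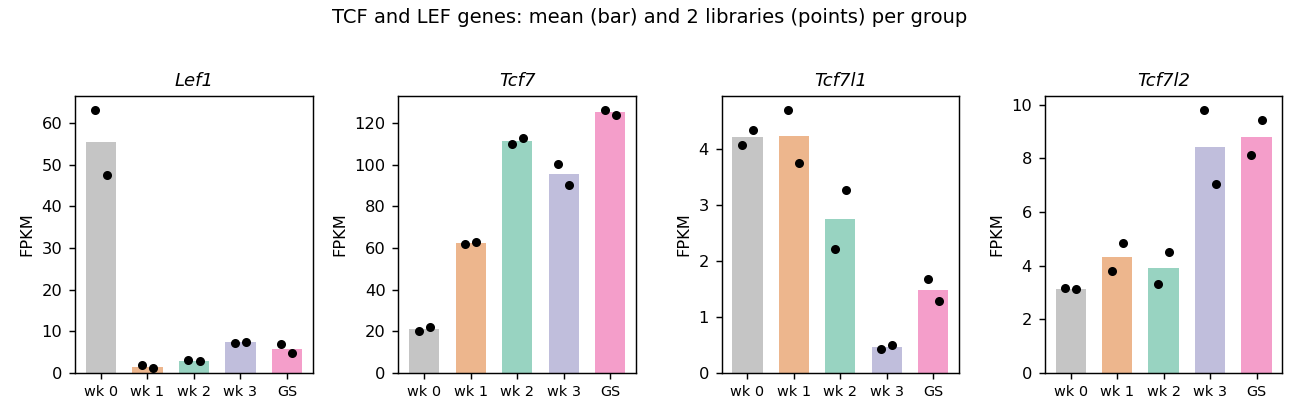
Bars are group means and points the 2 libraries, in FPKM on axes that start at 0, for Lef1, Tcf7, Tcf7l1 and Tcf7l2. Lef1 is high at week 0 alone, Tcf7 climbs from about 20.1 to 126, Tcf7l1 is lowest after 3 weeks, and Tcf7l2 is higher after 3 weeks and in GS cells than in the earlier groups.

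The other 2 nuclear factors changed later. Tcf7l1, which mostly represses its targets, was at 4.08 and 4.34 FPKM at week 0, 4.71 and 3.75 after 1 week, 2.22 and 3.27 after 2 weeks, 0.432 and 0.504 after 3 weeks, and 1.68 and 1.29 in GS cells. It changed by -1.34 from week 2 to week 3 (SE 0.17, adjusted p = 0.00162). Its rise from week 3 to GS cells (0.75, adjusted p = 0.0166) was lost without week 3 replicate 1 (0.0783), week 3 replicate 2 (0.0576) or GS cells replicate 1 (0.0977). Tcf7l2 stayed between 3.13 and 4.83 FPKM from week 0 to week 2 and was at 9.82 and 7.04 after 3 weeks and 8.14 and 9.42 in GS cells. The log2 difference between GS cells and week 0 was 1.24 (SE 0.19, adjusted p = 0.000385). The step from week 2 to week 3 (0.94, adjusted p = 0.0124) was lost without week 2 replicate 1 (0.0805) or week 3 replicate 1 (0.071). Further calls among these factors missed the threshold when single libraries were left out, in some cases with the estimate almost unchanged. The Lef1 rise from week 1 to week 2 (0.70) was lost without week 1 replicate 2 (0.51, adjusted p = 0.102), week 2 replicate 1 (0.0728) or week 2 replicate 2 (0.065), and its rise to week 3 (1.07, adjusted p = 0.00851) reached 0.05 without week 2 replicate 2. The Tcf7 rise from week 3 to GS cells (0.39) was lost without week 3 replicate 2 (0.0637) or GS cells replicate 1 (0.0655). The Tcf7l1 fall to week 2 (-0.49, adjusted p = 0.0373) was lost without either library of week 0 (0.0625 and 0.0623), week 1 replicate 1 (0.171), week 2 replicate 1 (0.234) or either library of week 3 (0.0536 in both cases).

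**Figure D5:**
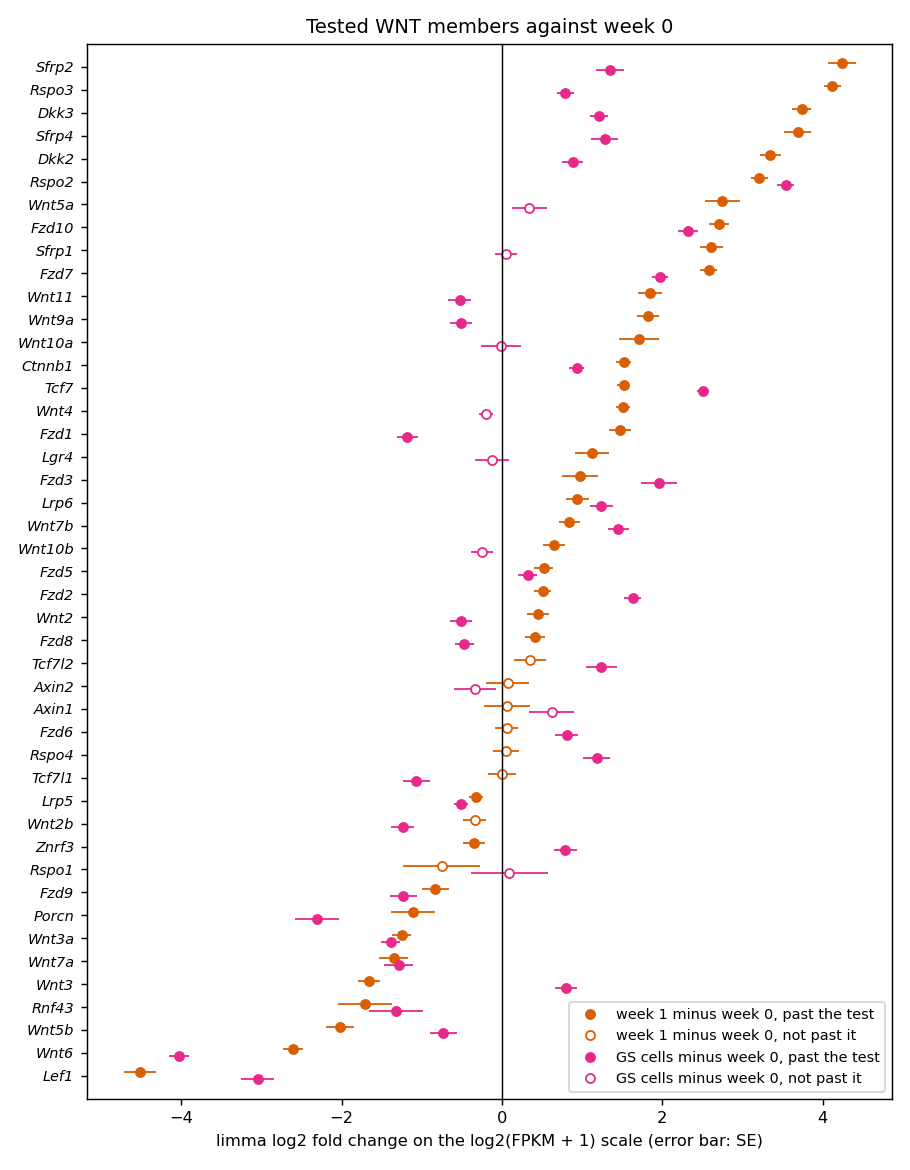
Points are log2 fold changes of the 45 tested members against week 0, with bars of 1 SE, for week 1 and for GS cells, and filled points passed the test. Sfrp2, Rspo3, Dkk3, Sfrp4 and Dkk2 lie far to the right after 1 week and nearer 0 in GS cells, while Rspo2 and Tcf7 lie further right in GS cells than after 1 week.

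The rest of the pathway moved in both directions, as did the genes at large. Of 63 other pathway genes, all tested, 29 rose and 20 fell from week 0 to week 1, with a median log2 change of 0.12, beside the -0.14 of all genes. From week 1 to week 2, 24 rose and 13 fell, and from week 2 to week 3 8 rose and 8 fell. From week 3 to GS cells 9 rose and 7 fell, and between week 0 and GS cells 24 were higher and 21 lower. Over all genes, in the same order of the 5 comparisons, 36.3%, 28.2%, 10.6%, 11.7% and 34.7% were higher. The lower shares were 44.0%, 27.4%, 10.7%, 10.8% and 45.9%. Frzb, a secreted decoy related to the SFRP proteins, was highest after 1 week, like Sfrp1, Sfrp2 and Sfrp4. Unlike them it was below its week 0 level after 2 weeks. Its mean was 4.25 ± 0.50 FPKM at week 0, 29.2 ± 3.2 after 1 week and 1.68 ± 0.37 after 2 weeks (SD, n = 2). Lgr6, an R-spondin receptor, fell from 6.45 ± 1.17 after 1 week to 0.278 ± 0.009 after 2 weeks (log2 change -2.54, adjusted p = 7.43e-06 by limma). Ptk7, a co-receptor of the polarity branch, was at 13.6 ± 1.2 FPKM at week 0 and 85.7 ± 2.9 in GS cells (log2 change 2.57, adjusted p = 2.3e-08 by limma). Dvl1, which relays the signal from Frizzled, was at 121 ± 10 and 24.5 ± 0.7 FPKM in the same groups (log2 change -2.26, adjusted p = 2.72e-07 by limma). Notum, an enzyme that strips the lipid from WNT ligands, rose from 1.09 ± 0.01 after 2 weeks to 3.91 ± 0.07 FPKM after 3 weeks (log2 change 1.23, adjusted p = 0.00848 by limma) and was at 1.29 ± 0.42 in GS cells.

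Of 25 genes known as β-catenin targets in other tissues, 23 were tested. From week 0 to week 1, 17 rose and 4 fell, with a median log2 change of 1.45 beside the -0.14 of all genes. Over all genes 36.3% rose and 44.0% fell in this step. From week 1 to week 2, 5 rose and 13 fell (median -0.65), beside 28.2% and 27.4% of all genes. GS cells had 11 higher and 7 lower than week 0 (median 0.41), beside 34.7% and 45.9% of all genes. Ccnd1, a cyclin, rose from a mean of 16.6 ± 6.3 to 219 ± 9 FPKM after 1 week (SD, n = 2; log2 change 3.69, adjusted p = 5.14e-07 by limma). Cd44, an adhesion receptor that fibroblasts also carry, rose from 0.525 ± 0.371 to 212 ± 6 FPKM (log2 change 7.15, adjusted p = 1.95e-08 by limma) and was at 9.44 ± 0.19 after 2 weeks. Some members are known as such targets too and were not counted here. From week 0 to week 1, as given above, Lef1 and Rnf43 fell and Tcf7 rose. Znrf3 was lower with a call that most alternatives lost, and Axin2 was not called. Lgr5 and Dkk1 were too low to test. Other pathways also act on many of the 25 genes, and the fibroblast marker sum was highest in the same week 1 libraries. The part of either was not tested.

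The 10 members too low to test were Wnt1, Wnt8a, Wnt8b, Wnt9b, Wnt16, Fzd4, Lgr5, Dkk1, Dkk4 and Sfrp5. Fzd4 was the steadiest of them, between 0.495 and 1.01 FPKM. Wnt8a and Wnt8b stayed at or below 0.102 FPKM, and Wnt16 at or below 0.220. Sfrp5 was at 0.114 and 0.0931 FPKM at week 0 and 1.06 and 0.875 in GS cells. At an FPKM of 1 a transcript of 3376 nucleotides, the median of the members' longest transcripts, had 32.8 to 66.9 reads, so levels well below 1 rest on few reads. Over the 5 groups together, an F test found differences in 42 of the 45 tested members, against 93.8% of all genes, and Axin1, Axin2 and Rspo1 were the 3 without a call.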

How the data were processed

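The authors deposited normalized FPKM values, with a column for each library. Tools in the submitters' processing notes are HISAT2 2.1.0 and Bowtie2 2.3.4.1 (aligners), Cufflinks 2.2.1 with Cuffdiff, cutadapt 1.16 and bcl2fastq 2.17.1.14, and the build is mm10 (GRCm38). For the annotation, filters, normalization and use of strand the sources used here give nothing. Errors of alignment in those values were carried along. Columns matched their libraries by title.

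Coordinates came from GENCODE M21, where 21951 of 21969 identifiers were found. Depth came from 2268 genes with 1 transcript of at least 1500 nucleotides, less a fragment of 200 nucleotides, in which 95.71% to 99.2% of low values were whole reads within 0.15.

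Genes were kept where 2 or more libraries reached FPKM 1 and were analysed as log2(FPKM + 1), a scale that understates changes of low genes. All 5 groups entered 1 fit in limma 3.58.1 (R 4.3.3; empirical Bayes with an intensity trend, 5 residual degrees of freedom, two-sided, Benjamini-Hochberg over all genes tested). The fit was tested on simulated data in which few genes changed, and only at week 1. That setting differs from the data here, where most tested genes differed between week 0 and week 1. Consecutive comparisons share a group. Same-numbered libraries did not deviate together (correlations -0.053 to 0.046 over 10 pairs of groups), so no replicate block was used. Alternatives were other pseudocounts, filters and scalings, fits of 2 groups alone, no trend, a replicate block and leaving out each library.

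The members and gene lists were chosen with earlier results of these data known. The naming rule covered every member, with the 10 called members of largest fold change per comparison described, and at most 4 called genes per other list and comparison. The 10 marker lists were undifferentiated and differentiating spermatogonia, spermatocytes, spermatids, Sertoli cells, Leydig cells, smooth muscle and myoid cells, fibroblasts and matrix, macrophages and endothelial cells.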

Additional observations from a re-analysis of the deposited data

How the results depend on the processing

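Of 129 calls of members over the 5 comparisons, 86 held in every alternative that could test the gene and 43 were lost or reversed in at least 1. The 7 that changed sign did so under quantile normalization. They were Lrp5 (0.088) and Znrf3 (0.20) from week 0 to week 1, and, between week 0 and GS cells, Wnt9a (0.57), Wnt2 (0.52), Wnt11 (0.41), Fzd8 (0.40) and Tcf7l1 (0.0019), all values log2 fold changes. Quantile normalization moved the median of all genes from -0.136 to 0.378 at week 1 and from -0.208 to 0.445 in GS cells against week 0, and a common FPKM sum to 0.075 and 0.168, so these small differences are relative to the scaling. From week 1 to week 2 the medians were 0.025, 0.173 and 0.24. Among all genes, the higher share of calls at week 1 was 45.2% as deposited, 59.8% after quantile normalization and 51.3% with a common sum. The cause of single changes was not tested.

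The number of members called, leaving out 1 library at a time, was 34 to 37 (week 1 with week 0), 28 to 34 (week 2 with week 1), 8 to 13 (week 3 with week 2), 6 to 13 (GS cells with week 3) and 34 to 37 (GS cells with week 0). The F test gave 41 to 43. A fit of week 3 and GS cells alone called 6 members in place of 12. Fits of 2 groups alone also ended the calls of Fzd3 from week 1 to week 2 (adjusted p = 0.0762, limma), Sfrp4 from week 2 to week 3 (0.0583) and Sfrp1 (0.0638) and Dkk3 (0.0629) from week 3 to GS cells. With a replicate block the counts were 36, 31, 12, 11 and 36, and 42 in the F test. The filter at FPKM 5 tested fewer members. Over all genes, the 3339 calls from week 2 to week 3 became 1880 with these groups alone, 1624 and 1587 without week 2 replicate 1 or 2, and 1825 without week 3 replicate 1. The 3526 calls from week 3 to GS cells became 1326 with these groups alone, 2006 and 2202 without week 3 replicate 1 or 2, and 1788 and 2023 without GS cells replicate 1 or 2. Quantile normalization and a common FPKM sum also ended the calls of Tcf7l1 from week 1 to week 2 (adjusted p = 0.532 and 0.214, limma) and Lrp5 from week 3 to GS cells (0.0505 and 0.0605). A pseudocount of 0.1 ended those of Wnt2 at week 1 (0.0517), Fzd5 in GS cells against week 0 (0.0628) and Rspo3 from week 3 to GS cells (0.0532).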
